A study of Mus musculus with 25 samples.

Results

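The genes of the circadian clock were followed in gastrocnemius muscle across 25 mice: Arntl, Clock, Per1, Per2, Per3, Cry2, Nr1d1, Nr1d2, Dbp and Tef. These 10 genes were chosen by name, as parts of the clock, with earlier results of these data known. Other core clock genes are read further below. All 10 chosen genes were among the 8829 genes measured. Of them, 9 were listed under these symbols and Arntl under its other symbol, Bmal1. The mice were male SAMP8 (senescence-accelerated mouse prone), an inbred strain that shows signs of aging early, and control and thymol mice shared that strain. From 8 months of age they received thymol, a terpenoid phenol of thyme, or vehicle alone for 3 months, with 14 mice in the thymol group and 11 in the control group. Thymol was given orally in corn oil at 20 mg per kg on each dosing day, and not on every day of the week. Each mouse gave 1 library of 3′ mRNA sequencing, and mice are named here by group and by the last number of their label. The hour at which each muscle was collected was not given in the sources used here.

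The mammalian clock is a loop of transcription. ARNTL (BMAL1) and CLOCK form a dimer that binds E-boxes and switches on the Per and Cry genes, whose proteins then block the dimer. The same dimer drives Nr1d1 and Nr1d2, which code for the nuclear receptors REV-ERBα and REV-ERBβ, and these repress Arntl through ROR elements. It also drives Dbp and Tef, PAR bZIP transcription factors that act on D-boxes, where NFIL3 competes with them as a repressor. In skeletal muscle, as in other tissues, Arntl transcripts peak at a time of day nearly opposite to that of Dbp and the Per genes.

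The upstream windows of 4 clock genes are printed because each holds a motif of 1 arm of this loop. They are RefSeq promoter windows on GRCm38.p6, from 250 bases before the transcription start to 50 after it, read on the gene's strand. Capitals mark the motifs, which were searched on both strands. The Arntl window (chr7:113207261-113207560, plus strand) holds the ROR element TAGGTCA from position 31 after the start. The Nr1d1 window (chr11:98775328-98775627, minus strand) holds the E′-box CACGTT on the opposite strand, so that it reads AACGTG here. The Per3 window (chr4:151044616-151044915, minus strand) holds 2 copies of the D-box TTATGTAA. The Tef window (chr15:81802423-81802722, plus strand) holds the E-box CACGTG.
Arntl: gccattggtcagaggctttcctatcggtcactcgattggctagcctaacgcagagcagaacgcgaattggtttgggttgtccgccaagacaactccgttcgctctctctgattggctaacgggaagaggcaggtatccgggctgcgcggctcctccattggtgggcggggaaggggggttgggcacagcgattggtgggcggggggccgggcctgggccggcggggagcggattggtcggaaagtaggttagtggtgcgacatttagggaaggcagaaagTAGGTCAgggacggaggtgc
Nr1d1: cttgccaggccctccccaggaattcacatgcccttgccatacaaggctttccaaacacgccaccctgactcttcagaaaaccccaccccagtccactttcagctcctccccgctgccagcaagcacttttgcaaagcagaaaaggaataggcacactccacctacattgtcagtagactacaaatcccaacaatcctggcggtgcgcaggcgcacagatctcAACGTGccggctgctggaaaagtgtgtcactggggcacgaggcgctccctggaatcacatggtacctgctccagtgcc
Per3: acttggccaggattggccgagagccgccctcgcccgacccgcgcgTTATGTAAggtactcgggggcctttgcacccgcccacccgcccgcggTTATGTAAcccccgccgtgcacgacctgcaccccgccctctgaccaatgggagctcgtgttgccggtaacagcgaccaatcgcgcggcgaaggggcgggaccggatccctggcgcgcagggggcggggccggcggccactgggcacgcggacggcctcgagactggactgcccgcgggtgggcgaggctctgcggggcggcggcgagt
Tef: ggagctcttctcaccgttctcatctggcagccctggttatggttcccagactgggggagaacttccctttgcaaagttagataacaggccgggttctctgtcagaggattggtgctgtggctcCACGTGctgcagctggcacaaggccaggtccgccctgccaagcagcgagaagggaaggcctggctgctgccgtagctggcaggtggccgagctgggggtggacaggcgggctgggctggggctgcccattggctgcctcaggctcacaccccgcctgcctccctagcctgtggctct

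Windows were listed for 9 members, 14 windows in all, and Per2 had no entry. A member counts if any of its windows holds the word, while the genome shares are per window, so these are unlike measures. The E-box was found for 2 members, Per1 and Tef, and in 7.15% of 32851 promoter windows of the genome. The E′-box was found for 2 members, Nr1d1 and Cry2, and in 4.685% of windows. The ROR element (TAGGTCA or TGGGTCA) was found for Arntl alone of the 9, and in 6.453% of windows. The D-box (TTATGTAA or TTACGTAA) was found for Per3 alone, and in 1.056% of windows. Clock, Nr1d2 and Dbp held none of these words in their windows. No 2 matches overlapped in these windows, and a match in a window is a description and not a measured site.

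The libraries held between 4463818 and 9463418 reads on the measured genes (median 7503259). Markers of skeletal muscle were all measured, 10 of 10, and their mean level lay between 12.65 and 12.93 log2 CPM (log2 of reads scaled to library size) in every mouse. Across all genes, control 18, thymol 20 and control 19 were the libraries least like the others, with mean correlations of 0.949, 0.95 and 0.952 against a median of 0.962. Thymol 3, which recurs in the results, was the next in that order at 0.956, and it had the lowest adipocyte marker level of the 25 mice, 3.04 log2 CPM, and the second lowest slow-fibre marker level, 5.81. Thymol 20 had the lowest slow-fibre marker level, 2.91. Each main count was repeated without control 18, control 19 and thymol 20.

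The levels of the clock genes spanned a wide range. Because 3′ sequencing counts transcript ends, levels of different genes could be compared without a correction for length. Tef was the most abundant member at a mean of 8.46 log2 CPM, followed by Nr1d2 (6.37), Dbp (6.06), Nr1d1 (5.75), Per3 (4.64), Clock (4.55), Cry2 (4.51), Per1 (4.0), Per2 (3.74) and Arntl (2.64). The gap between neighbours in this order was larger than the spread between mice (SD within groups) at 3 places, below Tef, below Nr1d1 and above Arntl. The other neighbours lay closer to each other than the spread of the more variable of the pair. Arntl had few reads, from 12 to 107 per mouse, and its values carry the largest counting error of the 10.

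Arntl, the activator without which the loop stops, varied most. In control mice its lowest, median and highest levels were 1.97, 2.81 and 3.80 log2 CPM, and in thymol mice 0.83, 2.65 and 4.26. The lowest level was in thymol 21 and the highest in thymol 3, a 10.8-fold range. Levels in 5 thymol mice lay below those of all control mice and in 1 above them, so the thymol group spread past the controls on both sides. Clock, which codes for the partner of ARNTL, had lowest, median and highest levels of 3.81, 4.57 and 5.01 log2 CPM in control mice and 4.05, 4.6 and 4.98 in thymol mice. The thymol levels of Clock lay wholly within the control range.

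The Per genes code for the repressors of the loop. Per1, which also responds to glucocorticoids, ran from 2.66 through a median of 4.17 to 5.90 log2 CPM in control mice and from 2.72 through 3.97 to 4.71 in thymol mice. Both ends of its 9.46-fold range were control mice, control 15 and control 19. Per2 levels were 3.12, 3.69 and 4.06 log2 CPM (lowest, median, highest) in control mice and 3.06, 3.80 and 4.47 in thymol mice. Per3 levels were 4.01, 4.59 and 4.98 in control mice and 3.44, 4.70 and 5.43 in thymol mice. For Per2, 1 thymol mouse lay below all controls and 4 above them. For Per3, 3 thymol mice lay below all controls and 6 above them, again on both sides. Cry2, which codes for a cryptochrome that represses together with the PER proteins, had levels of 4.17, 4.53 and 4.89 log2 CPM in control mice and 3.93, 4.52 and 4.87 in thymol mice, a 1.95-fold range over all mice.

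Nr1d1 levels were 4.75, 6.04 and 6.59 log2 CPM in control mice and 4.83, 5.82 and 6.91 in thymol mice. Its range was 4.49-fold, with thymol 16 highest and control 23 lowest, and both groups covered most of it. Nr1d2, the second receptor gene, was much steadier, with levels of 6.07, 6.34 and 6.73 in control mice and 5.84, 6.42 and 6.75 in thymol mice. Dbp, the output gene with the widest daily swing in most tissues, had levels of 5.59, 6.06 and 6.46 log2 CPM in control mice and 4.53, 6.32 and 6.88 in thymol mice. Its lowest levels were in thymol 34 and thymol 3, and its highest in thymol 26, a 5.11-fold range. As for Per3, 3 thymol mice lay below and 6 above all controls. Tef was the steadiest member, with levels of 8.34, 8.47 and 8.76 in control mice and 8.17, 8.41 and 8.71 in thymol mice.

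**Figure D1:**
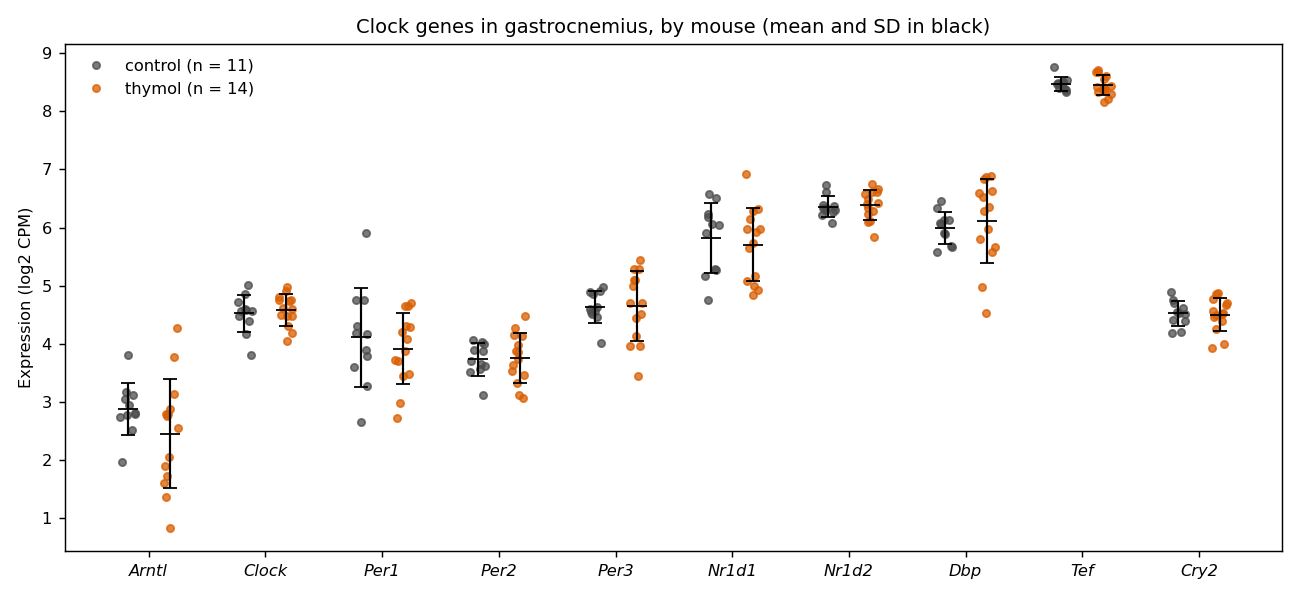
Expression of the 10 clock genes (log2 CPM, vertical axis) in each mouse, with control mice in grey and thymol mice in orange. Points are mice, and black bars give the mean and SD of each group. Thymol mice reach lower and higher than all control mice for Arntl, Per3 and Dbp, and also for Per2 and Nr1d2. For Per1 and Clock the extremes are control mice.

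The variation between mice exceeded what the read counts alone would give. The SD within groups was 8.39 times the counting SD (the SD expected from the number of reads) for Dbp, 8.11 times for Nr1d1, 5.29 times for Tef, 5.18 times for Per1 and 3.38 times for Arntl, and it was lowest for Cry2 at 2.29 times. The median of all 8829 genes was 2.09 times. The median SD within groups was 0.428 log2 units for the clock genes and 0.275 for all genes. Of the 10, 7 lay above the median of all genes and 4 among the 10 percent of genes with the largest SD (Arntl, Per1, Nr1d1 and Dbp).

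To ask whether thymol moved the clock genes, control and thymol mice were compared for every gene (limma, Benjamini-Hochberg adjustment over 8829 genes, two-sided). No clock gene passed the test, and no gene of the table did, with 0 of 8829 at an adjusted p under 0.05 (0% of genes). At an unadjusted p under 0.05, 0 of the 10 clock genes and 312 of all genes were called, which is 3.53% of genes. The largest difference was that of Arntl, whose mean was 2.45 ± 0.94 (SD, n = 14) under thymol and 2.88 ± 0.45 (SD, n = 11) under vehicle. Its log2 fold change was -0.43 (SE 0.28, 95% interval -1.0 to 0.15, adjusted p = 0.9999). Per1 differed by -0.20 (interval -0.74 to 0.33), Nr1d1 by -0.11 (-0.56 to 0.34) and Dbp by 0.11 (-0.31 to 0.53). The other 6 lay between -0.03 and 0.06, and Tef had the narrowest interval of the 10, -0.15 to 0.10. Without thymol 3 the fold change of Arntl was -0.57 and it became the 1 member called at an unadjusted p under 0.05, while 0 genes passed the adjusted test. The median over the clock genes was -0.00463 log2 units, against -0.00139 for all genes. The interval of Arntl ran from -1.0 to 0.15 on the log2 scale, so it held both a fall of about that size and no difference.

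The question of phase was put by asking which clock genes moved together from mouse to mouse. Genes of opposite arms peak at different hours, and whether the hour of collection differed between mice was not tested. Correlations were taken within groups (group means removed, 25 mice), and 45 pairs of clock genes were computed. Arntl and Dbp were opposed, with r = -0.694 (p = 0.00095) and rho = -0.592 (p = 0.00681, 100000 permutations each, two-sided). Thymol 3 and thymol 34 had high Arntl (4.26 and 3.76 log2 CPM) and the lowest Dbp (4.98 and 4.53), while thymol 21 had the lowest Arntl (0.83) and Dbp of 6.87. Without the 2 mice farthest from the median of Arntl, thymol 3 and thymol 21, r was -0.568.

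The relation of Arntl and Dbp did not pass the adjustment over all genes. In the fit of every gene on Arntl (limma, treatment as covariate), Dbp had a slope of -0.52 log2 units per log2 unit of Arntl (SE 0.10, adjusted p = 0.111), and 0 of 8828 genes (0%) had an adjusted p under 0.05. It passed in that fit when control 14 was left out (r = -0.729, adjusted p = 0.0131) or thymol 28 (r = -0.751, adjusted p = 0.0262). Without both thymol 3 and thymol 34, which were picked after their values were seen, r was -0.448, and without thymol 21 as well it was -0.353. By group, r was -0.106 in control mice and -0.779 in thymol mice, and the control mice, which were fewer, covered a narrower range of both genes.

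Other members of the repressed and output arms also ran against Arntl. At an unadjusted p under 0.05 in the Arntl fit, 6 of the 9 other members were called, against 577 of 8828 genes or 6.54% of genes. Clock was the 1 with a positive relation (r = 0.388), and Dbp, Per3 (r = -0.554), Tef (r = -0.415), Nr1d2 (r = -0.407) and Nr1d1 (r = -0.380) were the 5 with a negative one. Of these, Clock, Tef, Nr1d2 and Nr1d1 had unadjusted p between 0.0373 and 0.0489, and their adjusted p was at least 0.729. The count fell to 3 of 9 with quantile normalization or with no term for treatment, to 3 of 9 without thymol 9 or without thymol 21, and to 2 of 9 without thymol 34. Per2 (r = -0.257), Cry2 (r = -0.255) and Per1 (r = -0.0419) were not called. The 5 negative relations were negative in thymol mice, while in control mice 3 of them were positive. By group, Per3 ran with Arntl in control mice (r = 0.602) and against it in thymol mice (r = -0.749). In control mice alone r with Arntl was 0.220 for Nr1d1, 0.0324 for Tef and -0.04996 for Nr1d2, and in thymol mice alone it was -0.617, -0.529 and -0.505. Clock was positive in both, at 0.406 and 0.432. Without thymol 3 and thymol 34 the r of Arntl and Per3 was -0.346.

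Dbp was related to as many members as Arntl. In the fit on Dbp, 6 of 9 other members were called at an unadjusted p under 0.05, 4 of them positive and 2 negative, against 519 of 8828 genes or 5.88% of genes, and no gene had an adjusted p under 0.05 (0% of genes). Nr1d2 ran with Dbp (r = 0.684, p = 0.00061; rho = 0.578, p = 0.00526; 100000 permutations; adjusted p = 0.213 in the limma fit). Per3 did too (r = 0.677, p = 0.00167; rho = 0.555, p = 0.0134; 100000 permutations; adjusted p = 0.182 in the limma fit). Without thymol 3 and thymol 34 the r of Dbp and Per3 was 0.442, and in control mice alone it was -0.169. Tef (r = 0.583) and Nr1d1 (r = 0.537) were the other positive members, and Clock (r = -0.413) stood with Arntl on the negative side. Tef and Dbp had r = 0.617 in control mice and 0.591 in thymol mice. For Nr1d2 and Dbp these values were 0.273 and 0.791, and for Nr1d1 and Dbp 0.137 and 0.701.

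**Figure D2:**
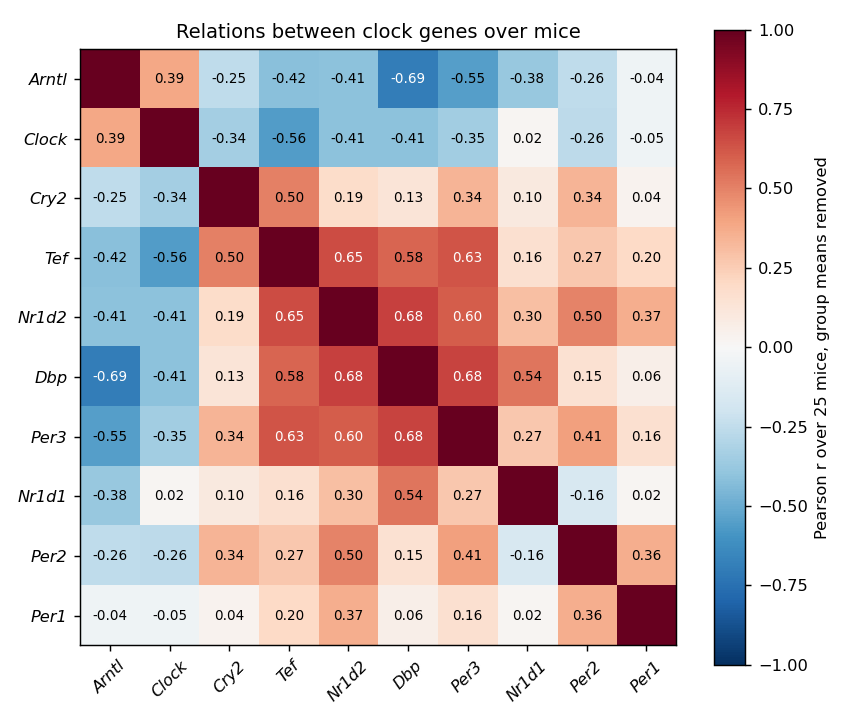
Pearson r over 25 mice, with group means removed, for each pair of clock genes (colour from blue at -1 to red at 1, value printed in each cell). Arntl and Clock are negative against nearly all others (15 of 16 pairs, but 9 of 16 in control mice alone), and Tef, Nr1d2, Dbp and Per3 form the block of r from 0.58 to 0.68. In control mice alone the r of Per3 with Tef, Nr1d2 and Dbp was 0.0962, 0.111 and -0.169. That of Nr1d2 and Dbp was 0.273, and Tef had 0.689 with Nr1d2 and 0.617 with Dbp.

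Among the chosen genes, the signs of most of the 45 pairs followed the arms of the loop over both groups. In control mice alone the signs were mixed. Of the 16 pairs of an activator gene (Arntl or Clock) with another member, 15 were negative, with a median r of -0.363. The exception was Clock and Nr1d1 (r = 0.0216). Cry1, a cryptochrome gene outside the chosen members and picked after its values were seen, went against this sign rule. Its r with Arntl was 0.470 over both groups, 0.629 in control mice and 0.441 in thymol mice. Of the 28 pairs of members outside the activators, 27 were positive, with a median r of 0.317, the exception being Per2 and Nr1d1 (r = -0.163). In control mice alone 9 of the 16 activator pairs were negative (median r -0.0400) and 17 of the 28 others positive (median r 0.0992). In thymol mice alone 16 of 16 were negative (median r -0.422) and 27 of 28 positive (median r 0.430). Among the control pairs, Dbp with Per1 (r = -0.516), Nr1d1 with Per2 (r = -0.516) and Nr1d1 with Cry2 (r = -0.487) were negative. The difference between the groups in these tallies was not tested. An absolute r of at least 0.5 was found for 11 pairs, 24.4% of the 45, against 2.14% of all pairs of a member with any gene. The share of all genes that ran against Arntl or Clock is not given here, so the sign counts have no background. The pairs share genes and are not independent. Tef had its largest r with Nr1d2 (0.651) and Per3 (0.629), and Clock its largest absolute r with Tef (-0.556). By group, r of Tef and Per3 was 0.0962 in control and 0.762 in thymol mice, and that of Tef and Nr1d2 was 0.689 and 0.637.

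Over both groups, Per1, Per2 and Nr1d1 stood outside that block of Tef, Nr1d2, Dbp and Per3. The largest r of Per1 with any member were those with Nr1d2 (0.366) and Per2 (0.364). In the fit on Per2, 3 of 9 members were called at an unadjusted p under 0.05, Per1, Per3 (r = 0.407) and Nr1d2 (r = 0.496), all positive, against 378 of 8828 genes or 4.28% of genes, and no gene had an adjusted p under 0.05 (0% of genes). Without thymol 34, 0 of the 9 were called in that fit, and without thymol 11 or thymol 21 1 was. In the fit on Nr1d1, 2 of 9 members were called at an unadjusted p under 0.05 (Dbp positive, Arntl negative), against 586 of 8828 genes or 6.64% of genes. With quantile normalization, the top 75% of genes by mean level, voom, robust moderation or no treatment term 1 of the 9 was called, as when any 1 of thymol 3, 6, 9, 11, 16, 20, 21, 26 and 34 was left out.

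Nr1d1 was the anchor for which genes passed the adjusted test. These were 3 of 8828 (0.034% of genes), and 1 of them, Bhlhe40, is a clock gene outside the 10, coding for the E-box-binding repressor DEC1. Bhlhe40 rose by 0.51 log2 units per log2 unit of Nr1d1 (SE 0.07, adjusted p = 0.000154, limma). Its r with Nr1d1 was 0.852, and 0.807 in control and 0.884 in thymol mice, with a permutation p of 1e-05 for r and for rho (0.797), the smallest that 100000 permutations can give. Thymol 16 was highest in both genes, at 6.91 and 6.17 log2 CPM, and thymol 11 was lowest in Bhlhe40 at 4.77 and second lowest in Nr1d1 at 4.83. The other two were Pfkfb3, coding for an enzyme that sets fructose 2,6-bisphosphate and with it glycolysis (r = 0.783, adjusted p = 0.00111), and Timp4, coding for an inhibitor of metalloproteinases (r = -0.724, adjusted p = 0.0276), both named here after their values were seen. Arntl, by contrast, had r = -0.437 with Bhlhe40 (adjusted p = 0.645 in the Arntl fit).

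**Figure D3:**
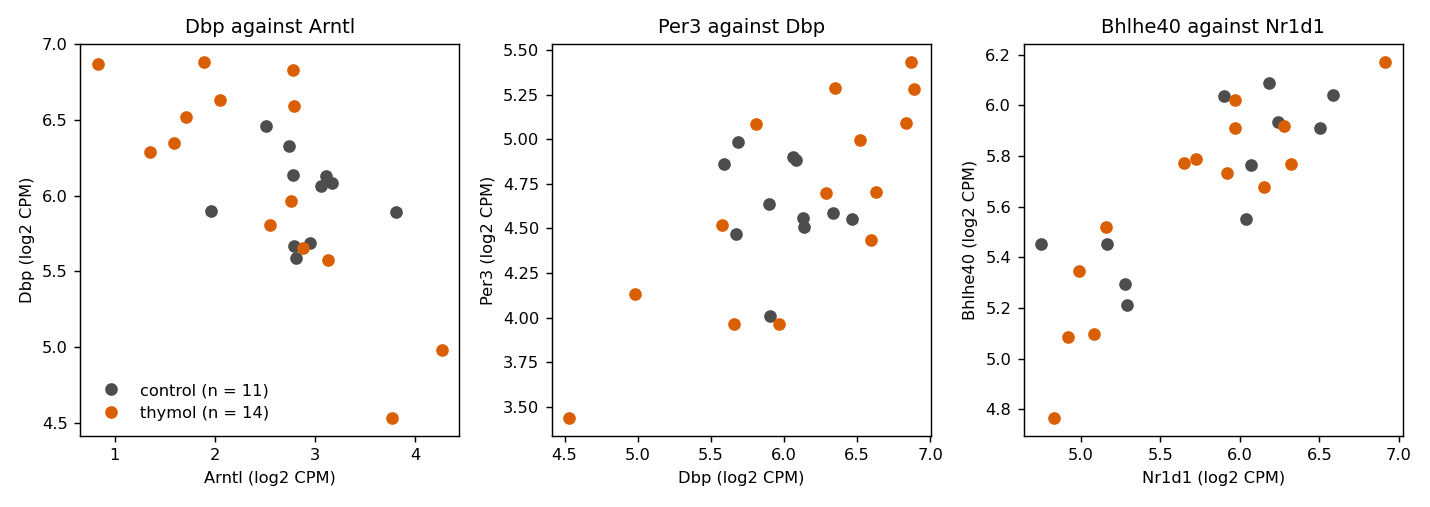
Levels of Dbp against Arntl, Per3 against Dbp and Bhlhe40 against Nr1d1 (log2 CPM on both axes), with 1 point per mouse, control in grey (n = 11) and thymol in orange (n = 14). The first 2 relations (r = -0.694 and 0.677 within groups) spread mainly over thymol mice, while that of Bhlhe40 and Nr1d1 (r = 0.852) holds the points of both groups along 1 line.

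Mice were then placed in order of Dbp minus Arntl, the log2 ratio of an output gene to its activator. This ratio ran from 2.09 to 3.95 in control mice (median 3.01, SD 0.55) and from 0.72 to 6.04 in thymol mice (median 3.93, SD 1.58). Thymol mice held both ends of the order, with thymol 3 (0.72) and thymol 34 (0.77) at the low end and thymol 21 (6.04) at the high end. The order was built from the same values as the relation of the 2 genes and gets no test. Nfil3, described below as near to Arntl over the same mice, is drawn with it, so that its place along the order follows from that relation.

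**Figure D4:**
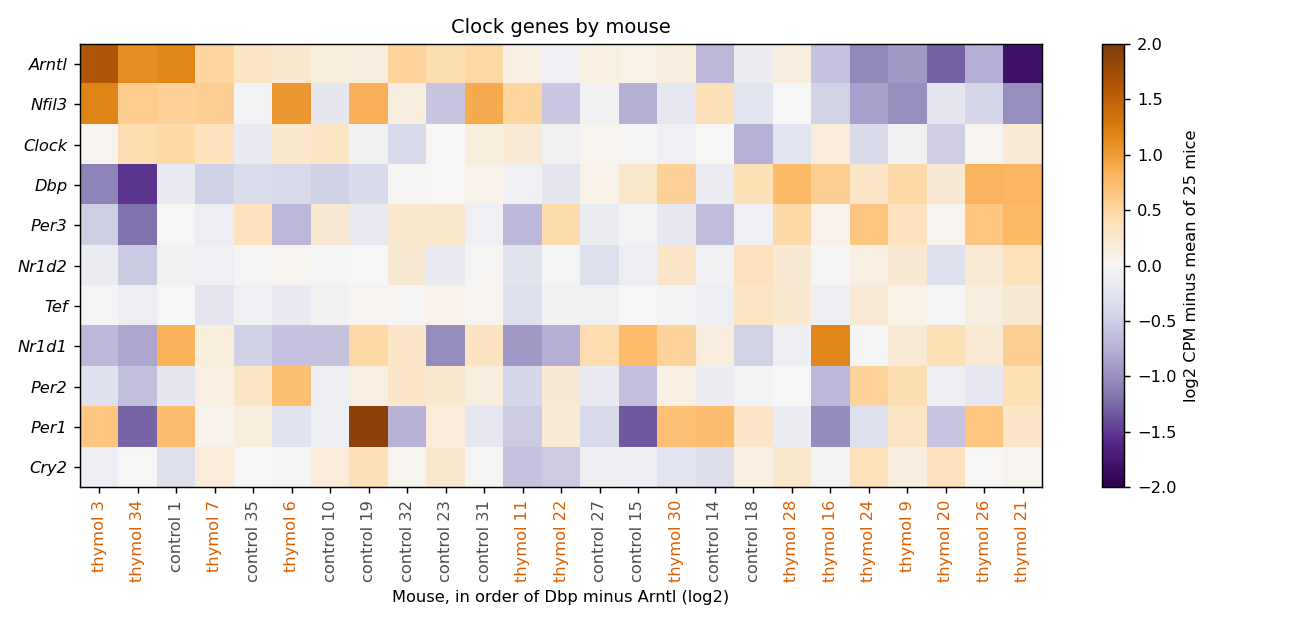
Level of each clock gene and of Nfil3 in each mouse (colour, log2 CPM minus the mean of 25 mice), with mice in order of Dbp minus Arntl from left to right and thymol mice in orange type. Arntl and Nfil3 pass from high to low along the order while Dbp and Per3 pass from low to high, and Per1, Cry2 and Per2 show no clear gradient.

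The spread between mice was compared between the groups with the ranges given above already known, so the SD ratios describe those same ranges and are no separate evidence. The SD in thymol mice was 2.62 times that in control mice for Dbp, 2.18 times for Per3 and 2.09 times for Arntl. It was above that of control mice for 8 of the 10 members, the exceptions being Clock (0.834) and Per1 (0.720), while 42.2% of all genes had a larger SD in thymol mice. A ratio of at least 2 was found for 3 of 10 members and 113 genes of the table, 1.28% of genes. In the test of absolute deviations from the group median (limma), Arntl (unadjusted p = 0.0259), Dbp (unadjusted p = 0.0264) and Per3 (unadjusted p = 0.0155) were called at an unadjusted p under 0.05, against 259 genes or 2.93% of genes, and their adjusted p was 0.999. No gene had an adjusted p under 0.05 in that test (0% of genes). The count of 3 members became 2 without any 1 of thymol 3, 9, 20, 21 and 24, and 4 without control 15.

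The SD ratios rested in part on a few mice. Leaving out single mice gave ratios of 1.82 to 2.70 for Arntl, 2.12 to 2.99 for Dbp and 1.85 to 3.13 for Per3. Without thymol 3 and thymol 34 the ratios were 1.61, 1.71 and 1.80, and without thymol 21 as well 1.36, 1.68 and 1.72. Both sets of mice were picked after their values were seen. Of the rest, Per2 (1.54), Tef (1.5), Nr1d2 (1.43) and Cry2 (1.31) had ratios above 1, and Nr1d1 had a ratio of 1.04.

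**Figure D5:**
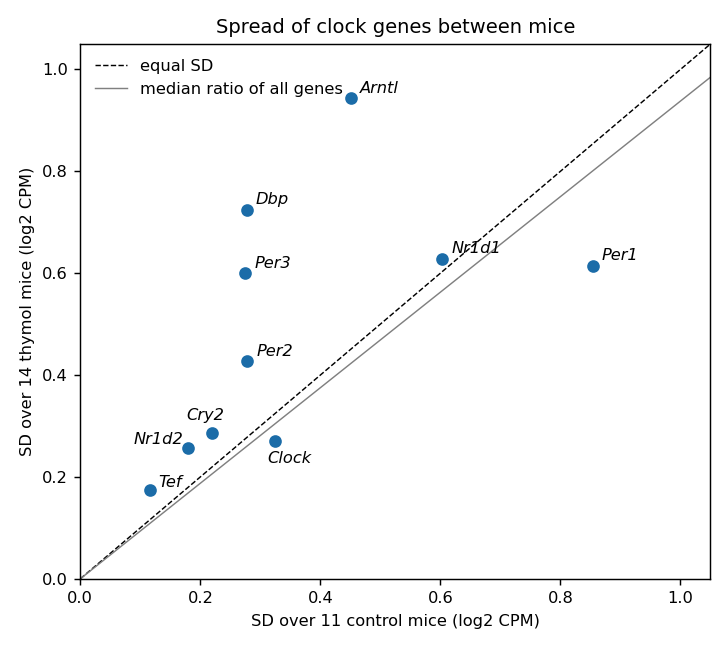
SD of each clock gene over 11 control mice (horizontal axis, log2 CPM) and over 14 thymol mice (vertical axis, log2 CPM), with 1 point per gene, a dashed line at equal SD and a grey line at the median ratio of all genes (0.938). Dbp, Per3 and Arntl lie far above both lines and Per1 below them.

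Whether the slope on Arntl differed between the groups was tested with an interaction term. Per3 was the 1 of 9 members called at an unadjusted p under 0.05, with a slope lower by 0.84 in thymol than in control mice (slope difference -0.84, SE 0.24, unadjusted p = 0.00177, adjusted p = 0.435), against 690 of 8828 genes or 7.82% of genes. Dbp (slope difference -0.53, unadjusted p = 0.0625) and Nr1d1 (slope difference -0.71, unadjusted p = 0.0716) were not called. No gene had an adjusted p under 0.05 (0% of genes), so a difference in slope between the groups was not shown for any member. Quantile normalization called 3 of the 9 members. Leaving out control 18, control 19 and thymol 20 called 2, as did leaving out any 1 of control 15, 18 and 23 and thymol 20, 28 and 30.

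Of 7 further core clock genes in the table (of 11 listed), 0 had an unadjusted p under 0.05 for thymol against control. Nfil3, the D-box repressor that competes with DBP and TEF, was the one most like Arntl over mice (r = 0.693, p = 0.00031; rho = 0.698, p = 0.00035; 100000 permutations; adjusted p = 0.111, limma). It ran against Dbp (r = -0.646) and Per3 (r = -0.715), and its r with Arntl was 0.847 in thymol and 0.179 in control mice. Cry1, coding for the second cryptochrome and chosen after its values were seen, had r = 0.470 with Arntl. This was opposite in sign to the r of Cry2 with Arntl (-0.255). The outputs Tspan4 (r = -0.512), coding for a tetraspanin, and Ucp3 (r = -0.500), coding for a mitochondrial uncoupling protein of muscle, and the deubiquitinase gene Usp2 (r = -0.489), had adjusted p of at least 0.561 in that fit.

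Genes that modify clock proteins or lie downstream of the clock were also read for thymol. Of 16 modifiers in the table (of 18 listed), 0 had an unadjusted p under 0.05, and of 17 outputs (of 19 listed) 1 did, against 3.53% of all genes, so that neither count stood apart from the table. The 1 output was Tns2, coding for a tensin of cell adhesions, with a log2 fold change of -0.24 (SE 0.11, adjusted p = 0.9999, limma). In the fit on Arntl 2 of 16 modifiers and 7 of 17 outputs were called at an unadjusted p under 0.05 (6.54% of all genes), 2 of the outputs positive and 5 negative, and 0 in either list had an adjusted p under 0.05.

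Several clock genes moved with other measured properties of the muscles. The correlations given here were picked from those of all members with all lists, and none was tested. Per1 went with the mean level of 12 glucocorticoid response genes (r = 0.707), and control 19 was highest in both, at 5.90 for Per1 and 6.44 log2 CPM for the list, whose other 24 mice lay between 4.84 and 5.81. Without control 19, left out after the data were seen, r was 0.549. None of those 12 genes had an unadjusted p under 0.05 for thymol. Per1 also went with erythroid markers (r = 0.572), for which control 19 was again high at 6.51 log2 CPM, and r without it was not computed. Cry2 ran against slow-fibre markers (r = -0.595) and Per3 against 11 immediate-early genes (r = -0.524). Clock ran against leukocyte markers (r = -0.498), and both Clock (r = -0.416) and Arntl (r = -0.406) against fibroblast markers. Control 18 and thymol 20, both among the libraries least like the others, had the highest leukocyte levels of their groups (5.79 and 5.25 log2 CPM). They also had the lowest Clock levels of their groups (3.81 and 4.05), and r without them was not computed. Of the immediate-early genes 1, Jund, had an unadjusted p under 0.05 for thymol (log2 fold change -0.34, adjusted p = 0.9999, limma). The slow-fibre mean ranged from 6.28 to 9.18 log2 CPM in control and from 2.91 to 9.49 in thymol mice, the leukocyte mean from 3.45 to 5.79 and from 3.57 to 5.25, and the fibroblast mean from 5.59 to 8.05 and from 5.97 to 7.59. No marker measured was at 0 reads in any mouse. The part of these properties in the results was not tested, and in bulk muscle fewer cells of a type and less RNA per cell cannot be told apart.

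The library names hold a number, which was used here as the order of the libraries. No trend along the last number of the label, which names the mice, was fitted. Clock had a slope of -0.0199 log2 units per library number (SE 0.0070, unadjusted p = 0.00820, adjusted p = 0.508, limma) and was the 1 of 10 members called at an unadjusted p under 0.05, against 658 genes or 7.45% of genes. No gene had an adjusted p under 0.05 (0% of genes), and 0 members were called without control 18, control 19 and thymol 20, but 2 without thymol 9 or thymol 22. With library number as a covariate the r of Arntl and Dbp was -0.694, and depth had an absolute r of at most 0.261 with any member. The first number in the label, whose meaning is not stated, was shared by 11 pairs of mice. Such pairs were closer to each other than the other 289 pairs for 8 of the 10 members, among them Arntl (a mean difference of 0.594 against 0.882 log2 units), Dbp (0.502 against 0.639) and Per2 (0.288 against 0.423). They were farther apart for Per1 (0.898 against 0.806) and Cry2 (0.324 against 0.287), with no test made. Group means were not removed, and the share of all genes with closer pairs was not computed, so the count of 8 has no background.

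Reads of neighbouring genes could enter some of these values. On GRCm38 (GENCODE M21), Nr1d1 (chr11:98767932-98775333, minus strand) overlaps exons of Thra on the opposite strand at its 3′ end, and Dbp (chr7:45705088-45710203, plus strand) overlaps Sphk2 in the same way. Thra had a mean of 6.76 log2 CPM, with r = 0.279 (p = 0.182) and rho = 0.422 (p = 0.0384, 100000 permutations each) against Nr1d1, and Sphk2 had a mean of 3.56. Per3 (chr4:151003652-151044665, minus strand) lies within Camta1 on the same strand with no exon shared. The library kit keeps the strand, but the strand setting of the counting was not given in the sources used here, so reads of Nr1d1 and Thra, or of Dbp and Sphk2, could not be told apart with certainty. Arntl (chr7:113207465-113314126, plus strand), Clock (chr5:76209868-76304792, minus strand), Tef (chr15:81802421-81826863, plus strand) and Cry2 (chr2:92403646-92434043, minus strand) overlap noncoding genes or pseudogenes that were not in the table. Per1 (chr11:69095217-69109960, plus strand), Per2 (chr1:91415982-91459324, minus strand) and Nr1d2 (chr14:18204054-18239127, minus strand) overlap no other annotated gene.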

How the data were processed

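Messenger RNA was measured by QuantSeq 3′ sequencing in the gastrocnemius of 25 SAMP8 mice, 1 library per mouse. The authors mapped the reads to GRCm38 with STAR 2.5.3 and counted them with HTSeq 0.6.1, as the submitters' processing notes name them, and deposited TMM-normalized log2 CPM values with about 2 reads added before the logarithm. The counting strand was not given in the sources used here. The study tested counts with a count model, but the deposited values are log2, so limma was used. Whole reads were recovered from the steps between values (100% within 0.1 reads). Counting error is a lower bound, since the values carry no molecular identifiers.

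Mice were grouped by their labels. limma 3.58.1 (R 4.3.3) was run on all 8829 genes, or on the other 8828 where the level of a member was in the fit. Tests were two-sided, with Benjamini-Hochberg adjustment across all genes tested and a threshold of 0.05. Fits were for treatment, for treatment plus the level of Arntl, Nr1d1, Dbp or Per2, and for library number. Further fits were for absolute deviations from the group median and for the interaction of treatment and Arntl. All were run with trend except that of absolute deviations. Pairs were tested by 100000 permutations within groups (numpy 2.4.6, pandas 2.3.3, scipy 1.17.1, matplotlib 3.10.9). The fits were tested on simulated data with 200 changed genes. Promoter windows came from RefSeq and gene positions from GENCODE.

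The members and lists were chosen with earlier results of these data known. Genes were named by rule: the 10 members; of 3 other clock lists, those with an unadjusted thymol p under 0.05 or an adjusted p under 0.05 in a fit on a member, plus the 4 nearest to Arntl; the 6 genes of each sign nearest to Arntl and to Dbp; and genes that overlap a member. Alternatives were quantile normalization, median centring, the 75% of genes with the highest mean, voom on recovered reads, robust moderation, library number as covariate, a block for the first label number, no treatment term, each mouse left out, and control 18, control 19 and thymol 20 left out. Those without thymol 3, 34 and 21, and without control 19 for Per1, were added after the data were seen. Of the genes nearest to Arntl, 1 is not reported here.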

Additional observations from a re-analysis of the deposited data

How the results depend on the processing

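The counts of 0 for thymol against control and for the trend with library number, at an adjusted p under 0.05, kept their value under every alternative run. With limma on Arntl levels, 1 gene was called without control 18, control 19 and thymol 20 (0 in the report), and leaving out single mice gave 0 to 5 genes and 0 to 1 members. With Dbp levels, 1 gene was called with median centring, with the top 75% by mean level, with robust moderation and with no treatment term, and leaving out single mice gave 0 to 2 genes and 0 to 1 members. For Nr1d1 levels single mice left out gave 2 to 4 genes, and for the spread 0 to 1. Without control 18, control 19 and thymol 20 the interaction with Arntl called 3 genes. The cause of these changes was not tested.

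Small differences changed sign. Without control 18, control 19 and thymol 20 the log2 fold changes of Cry2, Per1, Per3 and Tef were 0.00192, 0.0541, -0.0183 and 0.0118, and r of Nr1d1 with Clock and with Per1 was -0.00795 and -0.0224. With library number as covariate r of Nr1d1 and Clock was -0.0442. Leaving out single mice gave both signs for the fold changes of Clock (-0.0123 to 0.108), Cry2 (-0.0568 to 0.0216), Per2 (-0.0301 to 0.0839), Per3 (-0.0492 to 0.106) and Tef (-0.0453 to 0.00357) and for r of Arntl and Per1 (-0.182 to 0.101), Dbp and Per1 (-0.202 to 0.169), Dbp and Per2 (-0.0889 to 0.261), Nr1d1 and Clock (-0.0924 to 0.112), Nr1d1 and Cry2 (-0.0575 to 0.187), Nr1d1 and Per1 (-0.0848 to 0.16) and Nr1d1 and Per2 (-0.297 to 0.0114).

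The first label number is not stated to pair the mice, and over all genes the mice that share it did not deviate together. It was shared by 9 pairs of mice across the groups, whose deviations from the group means had a mean correlation of -0.00223 (from -0.179 to 0.104), against 0.000214 for other pairs. This was not computed for the clock genes alone. With group means kept, mice that share the number were closer for 8 of the 10 members, as given above. With the first label number as a replicate block, 7 residual degrees of freedom were left. Of the 3 genes called with Nr1d1, 1 was then called (Pfkfb3, and not Bhlhe40 or Timp4), and the members with an unadjusted p under 0.05 went from 6 to 1 with Arntl, from 6 to 1 with Dbp and from 3 to 1 with Per2 (Nr1d1, Nr1d1 and Per1). In that blocked fit the fold changes of Clock, Nr1d1 and Per2 were -0.0493, 0.0865 and -0.065. The blocked r of Arntl was -0.308 with Clock, 0.236 with Cry2, 0.0482 with Per1 and 0.0309 with Tef. That of Dbp was 0.283 with Clock, -0.255 with Cry2, -0.267 with Per1 and -0.377 with Per2. That of Nr1d1 was -0.29 with Per1, 0.0219 with Per2 and -0.0754 with Tef. The blocked r of Arntl and Dbp was -0.386. Read depth limits Arntl most, with 12 reads in its lowest mouse.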

Other observations

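Beyond the clock, the genes nearest to Arntl and to Dbp over the 25 mice partly mirrored each other. With Arntl the 6 highest correlations within groups were those of Lrrc30 (r = 0.702), Nfil3 (0.693), Prkcd (0.686), Nup214 (0.673), Pds5a (0.668) and Smad5 (0.665), and among the lowest were those of Prep (-0.689), Dipk1b (-0.672), Myoc (-0.657), Stxbp6 (-0.639) and Pik3ip1 (-0.638). Prkcd codes for a protein kinase C and Smad5 for a mediator of bone morphogenetic protein signals. None of these had an adjusted p under 0.05 in the limma fit on Arntl, and the lowest adjusted p among them was 0.111.

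With Dbp the 6 highest were Ankrd12 (r = 0.678), Odf2 (0.677), Zfp326 (0.677), Mmp9 (0.648), Sned1 (0.645) and Pik3ip1 (0.638), and the 6 lowest Lrrc30 (-0.743), Mphosph6 (-0.659), Nfil3 (-0.646), Ints15 (-0.639), Rel (-0.629) and Lmo4 (-0.628). Lrrc30 came nearest to the threshold, with an adjusted p of 0.0540 in the limma fit on Dbp, and its r with Dbp was -0.566 in control and -0.784 in thymol mice. Lrrc30, Nfil3 and Pik3ip1 stood in the lists of both anchors with opposite sign, and the 2 anchors are themselves related (r = -0.694). Bhlhe40 and Pfkfb3, both related to Nr1d1, had r = 0.788 with each other. Per1 and Usp2, which codes for a deubiquitinase of clock proteins, had r = 0.591, with 0.713 in control and 0.425 in thymol mice.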
